A study of Mus musculus with 13 samples.

Results

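The genes described here build, move along or regulate microtubules, and they were followed in cultured mouse oligodendrocyte-lineage cells by RNA sequencing. They were chosen by name alone, as the rows of the count table whose symbols are alpha, beta or gamma tubulins, kinesins, cytoplasmic dynein chains, stathmins, end-binding proteins or structural microtubule-associated proteins (MAPs). The name rule found 87 of the 13549 genes in the table. They comprise 4 alpha tubulins, 7 beta tubulins, 2 gamma tubulins, 13 mitotic kinesins, 19 transport and neurite kinesins, 7 kinesins of the cilium, 15 dynein chains, 4 stathmins, 3 end-binding proteins, 12 structural MAPs and Kif1bp, which matches by name but encodes a kinesin-binding protein and not a motor. All 87 passed the expression filter, as did every gene of the deposited table, each of which has at least 1 count in every library and 10 or more in at least 4. Microtubule genes outside the table were not analysed here.

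The cells came from brains of C57BL/6 mice at postnatal day 6 or 7. One control OPC library and 2 cKO OPC libraries are from day 7, the other OPC libraries and every iOL library from day 6. Oligodendrocyte precursor cells (OPCs) were kept in DMEM-Sato medium that held PDGF and NT-3. The immature oligodendrocytes (iOLs) date from day 2 of culture with the hormone T3 and without PDGF. At each stage, control cells were set against cells of an Eed conditional knockout (cKO). The Eed protein is a core part of Polycomb repressive complex 2, which methylates histone H3 and keeps developmental genes silent. Control OPCs have 2 libraries, cKO OPCs have 3, and the iOLs of either genotype have 2. Groups were read from the titles, because every sample carries the same genotype entry, EED cKO, and the Cre line that deletes Eed is not given in the labels. Nothing in the labels makes the replicates separate mice or cultures, and the p-values therefore measure only how far these libraries spread, which may be technical.

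Microtubules are polymers of alpha- and beta-tubulin, nucleated by gamma-tubulin. Each tubulin is encoded by several genes, whose products (isotypes) differ between cell types. Kinesins walk along microtubules, most of them outwards and a few inwards, while cytoplasmic dynein carries cargo inwards. Some kinesins act only in dividing cells, where they separate spindle poles, move chromosomes and complete cytokinesis. Others carry vesicles, mRNA or organelles. Oligodendrocytes stop dividing as they mature and extend branched processes in which microtubules carry myelin mRNAs and membrane, and structural MAPs such as tau (Mapt) and the Map1 and Map6 proteins stabilise those microtubules.

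The mitotic kinesins share a promoter feature that the name rule did not use. The cell cycle genes homology region (CHR), here the letters TTTGAA on either strand, is known as a docking element of the complexes that repress or activate late cell-cycle genes, and CCAAT, read on either strand, is the binding motif of the factor NF-Y. RefSeq promoter windows of build GRCm38.p6, running from 250 bases before to 50 bases after the start of each gene, were found for 65 of the 87 genes, all of which matched a RefSeq symbol or synonym. TTTGAA stood in 11 of 12 mitotic kinesin windows (91.7%), in 17.9% of all 32851 windows and in 11.5% of the windows of genes in the count table. CCAAT stood in 66.7% of the mitotic kinesin windows and in 37.4% of all windows, and both motifs in 66.7% against 7.0%. The transport kinesins held TTTGAA in 12.5% of their windows and the structural MAPs in 15.4%, near the share of all windows. Most of the mitotic matches lay close to the start. In the stretch from 70 bases before to 30 bases after it, which was picked after the positions had been seen, 8 of 12 mitotic kinesins held TTTGAA (66.7%) against 5.11% of all windows. Such a stretch of 100 bases is shown for 4 of them, in the direction of transcription, because most of the class shares these letters. Capitals mark TTTGAA or its reverse complement TTCAAA, and CCAAT or its reverse complement ATTGG. Kif11 is the motor that pushes spindle poles apart, Kif22 moves chromosome arms, Kif18b acts on microtubule ends near the cell cortex and Kif23 is part of the centralspindlin complex of cytokinesis.
Kif11 (chr19:37376312-37376411, + strand): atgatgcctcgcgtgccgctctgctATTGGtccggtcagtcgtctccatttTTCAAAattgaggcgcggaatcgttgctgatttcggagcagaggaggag
Kif22 (chr7:127042391-127042490, - strand): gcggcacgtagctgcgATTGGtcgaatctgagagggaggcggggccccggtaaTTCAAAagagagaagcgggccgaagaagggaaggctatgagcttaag
Kif18b (chr11:102925095-102925194, - strand): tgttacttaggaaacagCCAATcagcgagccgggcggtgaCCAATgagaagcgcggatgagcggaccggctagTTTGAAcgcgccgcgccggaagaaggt
Kif23 (chr9:61946770-61946869, - strand): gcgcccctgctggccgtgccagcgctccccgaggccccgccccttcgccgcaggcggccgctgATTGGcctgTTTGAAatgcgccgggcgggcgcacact
In Kif11 and Kif22 the motif begins 19 and 17 bases before the start, and in Kif18b and Kif23 it begins just after it. Each of the 4 also has a CCAAT match upstream of it. A match is a description of letters, not a measured binding site.

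Total counts ran from 17417529 to 19680398 per library, and the 87 genes took 1.27% to 1.41% of the reads in OPCs, 1.96% in control iOLs and 1.55% to 1.62% in Eed cKO iOLs. Eed itself had 21.7 and 16.8 CPM (counts scaled to libraries of one common size) in control OPCs, 13.3, 11.8 and 12.5 in cKO OPCs, 18.003 and 21.2 in control iOLs and 14.6 and 12.1 in cKO iOLs. The cKO libraries were below the controls at both stages, with edgeR Benjamini-Hochberg adjusted p of 0.0847 and 0.0973, and the table does not show which exons the reads came from. The 6 OPC markers, Pdgfra and Cspg4 among them, summed to 11370 to 15030 CPM in OPCs and 3773 to 4606 CPM in iOLs. The control OPC libraries differed from each other in 8 oligodendrocyte markers, which summed to 6642 CPM in the first (day 7) and 2410 CPM in the second (day 6). Those 8 markers, Mbp and Myrf among them, summed to 8378 and 8351 CPM in control iOLs and to 1722 and 2442 CPM in cKO iOLs. In cKO OPCs they summed to 2286 and 2992 CPM (day 7) and 1234 CPM (day 6), so the cKO iOL sums lay within the cKO OPC range. Their median log2 fold change from OPCs to iOLs was 0.75 in controls, with 3 of 8 negative. In cKO cells that median was 0.04, with 4 of 8 negative. Of 6 microglial markers only P2ry12 is in the table, at 1.12 to 2.48 CPM. In bulk RNA, fewer cells of a type and less RNA per cell cannot be told apart.

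Differentiation in control cells was examined first, as iOLs against OPCs. Most mitotic kinesins fell, while the genes that rose included 11 of 19 transport kinesins, 8 of 15 dynein chains, 6 of 12 structural MAPs and 4 of 7 beta tubulins. In all, 33 of the 87 genes were higher in iOLs and 20 lower (edgeR quasi-likelihood test, with an adjusted p by Benjamini-Hochberg of less than 0.05). Of all genes tested, 21.0% were higher and 25.3% lower. Members were therefore higher more often than the table as a whole (37.9%) and lower about as often (23%). Changes over 2-fold were called for 15 genes upwards, against 7.93% of the table, and for 15 downwards, against 14.4%. All 53 called genes kept their direction when the iOLs were set against the day 6 OPC library alone. Sizes moved unevenly between classes. The median over the 4 stathmins was -0.37 there and -0.88 in the main fit, and that over the mitotic kinesins -1.73 and -1.78. With only the control libraries fitted 21 genes were higher, against 1862 of all 13549 genes. Without the first control iOL library the count higher also fell here. Over all genes that count fell without either control iOL library.

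The fall was led by the mitotic kinesins, of which 12 of 13 were lower with a median log2 fold change of -1.78, against -0.06 over all genes. Kif11 was at 108 and 92.8 CPM in control OPCs and at 29.5 and 25.9 CPM in control iOLs, a log2 fold change of -1.85 ± 0.14 (SE, edgeR adjusted p = 1.57e-05). Kif22 showed the largest fall of the class, from 95.4 and 59.0 CPM to 15.6 and 12.3 CPM (-2.47 ± 0.23, edgeR adjusted p = 5.04e-05). Every iOL library lay below both OPC libraries for each, which for Kif22 was a condition of its being named. Kifc1, a motor that focuses spindle poles, fell by 2.20 ± 0.19 (edgeR adjusted p = 2.93e-05), but its reads cannot be separated with confidence from those of its near copy Kifc5b, which fell by 2.13. Kif14, a cytokinesis motor, fell by 2.02, Kif23 fell by 1.71 and Kif18b fell by 1.76. Kif18a, which dampens chromosome movements at the metaphase plate, was the member not called, at 13.2 and 8.63 CPM in OPCs and 5.74 and 6.83 CPM in iOLs (-0.79 ± 0.30, edgeR adjusted p = 0.0572).

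The 16 spindle proteins that are not kinesins, listed for comparison, moved the same way, with 15 lower and a median of -1.62. Ska1 of the kinetochore had the largest fall (-3.18 ± 0.34, edgeR adjusted p = 9.52e-05) and Spc24 the next (-2.51 ± 0.27, edgeR adjusted p = 9.31e-05), while Cenpe was the one not called. Mki67, a marker of cycling cells, was at 251 and 126 CPM in control OPCs and at 114 and 99.6 CPM in control iOLs (-0.82 ± 0.36, edgeR adjusted p = 0.0915). The part of cycling cells in the fall of the mitotic kinesins was not tested.

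Among the tubulins, 4 of 7 beta isotypes were higher and none lower. Tubb6 went from 4.51 and 5.74 CPM to 43.5 and 50.8 CPM (3.20 ± 0.19, edgeR adjusted p = 4.99e-06). Tubb4a, the isotype characteristic of mature oligodendrocytes and mutated in a human hypomyelinating leukodystrophy, rose from 364 and 237 CPM to 1170 and 1100 CPM (1.92 ± 0.25, edgeR adjusted p = 0.0003). Tubb3, best known as the neuronal isotype, rose from 61.2 and 43.3 CPM to 113 and 115 CPM (1.13 ± 0.18, edgeR adjusted p = 0.000794). The iOL libraries of each lay above both OPC libraries. Tubb4b rose by 0.61, whereas Tubb2a (0.21), Tubb2b (0.12) and Tubb5 (-0.06), were not called.

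Of the alpha tubulins only Tuba1b was called, and it fell by 1.20 (edgeR adjusted p = 0.00746), from 186 and 84.7 CPM to 56.2 and 61.1 CPM. Against the day 6 OPC library alone its difference was -0.527, and its call was lost with only the control groups fitted (adjusted p = 0.0646) and without the first iOL library (0.0533). Tuba1a, the main alpha-tubulin gene of the developing brain, stood at 1618 and 960.6 CPM in OPCs and 1678 and 1728 CPM in iOLs (0.40, edgeR adjusted p = 0.182), and Tuba4a differed by -0.02. Reads of Tuba1a, Tuba1b and Tuba1c, and of Tubb2a and Tubb2b, may be split between near-identical copies. Of the gamma tubulins Tubg2 was called lower (-1.22, edgeR adjusted p = 0.00244), and Tubg1 differed by -0.11.

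Structural MAPs rose in 6 of 12 cases and none fell. Map1b went from 142 and 90.9 CPM to 1093 and 1031 CPM (3.19 ± 0.39, edgeR adjusted p = 0.000194), and Map1a from 149 and 179 CPM to 779 and 637 CPM (2.11 ± 0.17, edgeR adjusted p = 2.18e-05). Both belong to the Map1 family of microtubule stabilisers, and both were higher in each iOL library than in any OPC library. Map6, which makes microtubules resistant to cold, rose by 0.97, and its relative Map6d1 rose by 0.98, from 29.9 and 28.3 CPM to 57.9 and 56.6 CPM. Map7d1 and Map7d2, of the family that recruits kinesin-1, rose by 0.42 and 0.57. Map2 (0.21), Map4 (0.29), Map7 (-0.40) and Mapt (-0.35) were not called. Of the end-binding proteins, which track growing microtubule ends, Mapre2 was called higher (0.44, but 0.0668 as adjusted p without the first iOL library), while Mapre1 (0.29) and Mapre3 (0.14) were not called.

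Among the transport and neurite kinesins, a class that also holds other non-mitotic kinesins, 11 of 19 were higher and 2 lower. The kinesin-1 heavy chains rose together. Kif5b went from 112 and 124 CPM to 406 and 425 CPM (1.81 ± 0.17, edgeR adjusted p = 5.08e-05), Kif5c rose by 1.34 and Kif5a by 1.32. Kif1a, a carrier of synaptic vesicle precursors in neurons, rose by 0.83. Kif13a, an endosomal motor, and Kifc3, an inward-directed motor, fell by 0.80 and 0.59. Kif1bp, which binds kinesin motor domains, rose by 1.05, from 100 and 92.3 CPM to 199 and 200.03 CPM.

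Dynein chains were higher in 8 of 15 cases and lower in 1. Dynll2, one of the light chains shared with other complexes, rose from 325 and 192 CPM to 753 and 719 CPM (1.51 ± 0.24, edgeR adjusted p = 0.000925), and Dynll1 rose by 0.85. Dync1i1, the intermediate chain enriched in neurons, fell from 5.33 and 3.63 CPM to 1.08 and 1.17 CPM (-1.99 ± 0.34, edgeR adjusted p = 0.00136), while the broadly expressed Dync1i2 rose by 0.72. The heavy chain Dync1h1 was not called (0.35). Dynlt1b and Dynlt1c were called higher (1.0313 and 1.90), but the Dynlt1 genes are near-identical copies and their counts are uncertain. The Dynlt1b call was lost without the first iOL library (adjusted p = 0.43), without the day 6 OPC library (0.205) and with only the control groups fitted (0.152).

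Stathmins, which bind free tubulin dimers or destabilise microtubule ends, went the other way, with 3 of 4 lower. Stmn4 fell by 1.35, Stmn3 by 0.96 and Stmn1 by 0.80. Stmn1 was at 135 and 77.1 CPM in control OPCs and at 65.6 and 56.2 CPM in iOLs (edgeR adjusted p = 0.0192), and without the day 7 OPC library its adjusted p was 0.106 and that of Stmn4 0.242. In these genes the day 7 control OPC library was the high one, and without either control iOL library or with only the control groups fitted all 3 stathmin calls were lost as well (0.0538 to 0.118). Stmn2 was not called (-0.17). Of the cilium kinesins, Kif19a, which limits cilium length, rose from 11.9 and 4.32 CPM to 104 and 73.5 CPM (3.45 ± 0.45, edgeR adjusted p = 0.000274), and Kif9 rose from 0.586 and 0.842 CPM to 2.27 and 4.33 CPM (2.19). Of 6 markers of ependymal and multiciliated cells 5 are in the table, and 2 of them were called higher in control iOLs. They summed to 21.2 to 21.5 CPM in control OPCs and 36.4 to 50.1 CPM in control iOLs, and their part in the cilium kinesins was not tested.

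**Figure D1:**
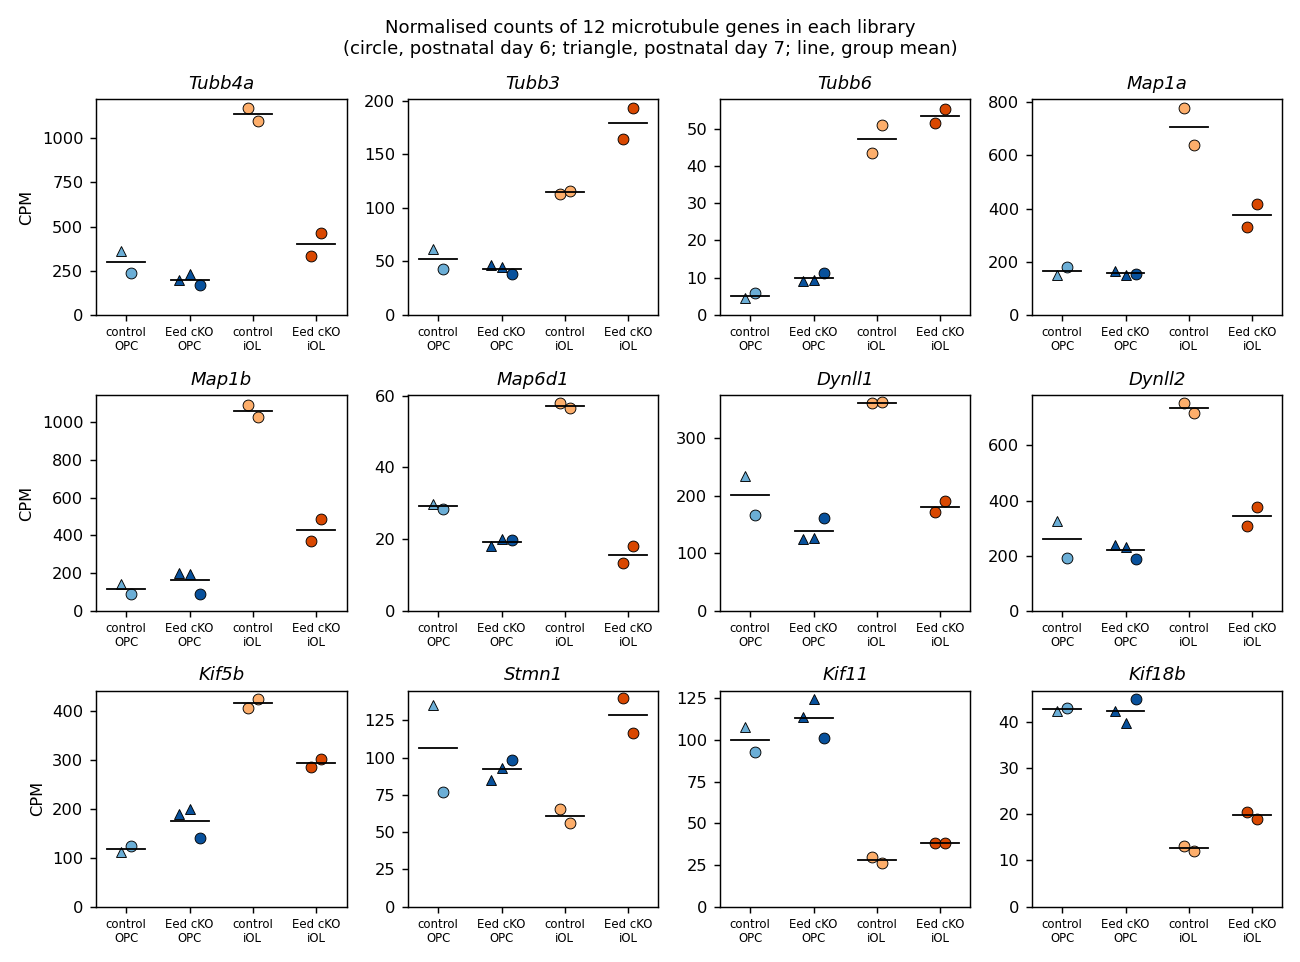
Normalised counts (CPM, linear axes from 0) of 12 microtubule genes in each of the 9 libraries. Circles are libraries from postnatal day 6, triangles from day 7, and the lines are group means. Tubb4a, Map1a, Map1b, Dynll2 and Kif5b are highest in both control iOL libraries, and Kif11 and Kif18b are lowest there.

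The same comparison in Eed cKO cells, which shares no library with that in controls, called 21 genes higher and 21 lower (edgeR adjusted p under 0.05), against 18.5% and 21.8% of the table. Over 2-fold, 9 genes were higher and 17 lower, where the table had 6.73% and 11.2%. Of the genes called, 18 were higher in both comparisons and 16 lower in both, and none was called in opposite directions. These 18 are 54.5% of those higher in controls and 85.7% of those higher in cKO cells. The log2 fold change was smaller in size in cKO cells for 60 of the 87 genes (69%), and for 60.9% of all genes. The 42 called genes kept their direction when the iOLs were set against the day 6 cKO OPC library alone. Leaving out any 1 cKO library lowered the count higher here. Over all genes that count fell too, except without the day 6 cKO OPC library, where it rose.

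Mitotic kinesins again fell, in 12 of 13 cases, with a median of -1.45. Kif11 was at 114, 124 and 101 CPM in cKO OPCs and at 38.1 CPM in both cKO iOL libraries (-1.57 ± 0.13, edgeR adjusted p = 2.72e-05). The member not called was Kif20b, a motor of the late spindle (-0.83, edgeR adjusted p = 0.0558). The fall was smaller in size than in controls for 12 of the 13 mitotic kinesins and for all 16 spindle proteins, and for 13 of 13 kinesins within day 6 alone. Kif2c, which depolymerises microtubules at kinetochores, changed by -1.10 here and by -1.96 in controls.

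The beta tubulins called were Tubb3, Tubb4a, Tubb4b and Tubb6, as in controls. Tubb3 rose from 46.9, 44.6 and 38.1 CPM to 164 and 193 CPM (2.05 ± 0.16, edgeR adjusted p = 1.74e-05), Tubb6 rose by 2.42 and Tubb4b by 0.91. Tubb4a rose from 197, 230 and 169 CPM to 333 and 466 CPM (1.0086 ± 0.22, edgeR adjusted p = 0.00558), and without the second cKO iOL library its adjusted p was 0.0748. Tubb4a was thus called at both genotypes while the iOL levels lay far apart.

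Structural MAPs were called higher in only 2 cases in cKO cells, Map1b (1.41) and Map1a (1.26), and lower in another 2, Map7 (-1.03) and Map2 (-0.59). Map1b went from 198, 197 and 90.2 CPM to 372 and 488 CPM, and without the second cKO iOL library its adjusted p was 0.0658. The Map2 call was lost with a term for postnatal day (adjusted p = 0.0742) and without either day 7 cKO OPC library or either cKO iOL library (0.0806 to 0.147). Map6 (0.24) and Map6d1 (-0.31) were not called. The kinesin-1 heavy chains rose, Kif5b by 0.74, Kif5a by 0.79 and Kif5c by 0.94, and Kif1a (0.22) was not called in cKO cells. Kif26b, an unconventional kinesin of cell polarity, rose by 0.92 and its relative Kif26a fell by 1.61. In the dynein chains, 5 were higher and 1 lower. Dync1i1 fell by 2.21 and Dynll1 (0.39) was not called. Dynll2 was called higher (0.64, edgeR adjusted p = 0.0383), but the call was lost without any 1 of the 5 cKO libraries (0.0648 to 0.245) and with the replicate block (0.103). Stmn4 was called lower (-1.25), a call lost without either day 7 OPC library or either iOL library (0.0792 to 0.174), and the other 3 stathmins were not called. Kif9 rose by 3.01 and Tubg2 fell by 1.31. Kif19a (1.63) was not called without the second iOL library (adjusted p = 0.0678), nor Tuba1c (-1.08) without the first (0.158).

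**Figure D2:**
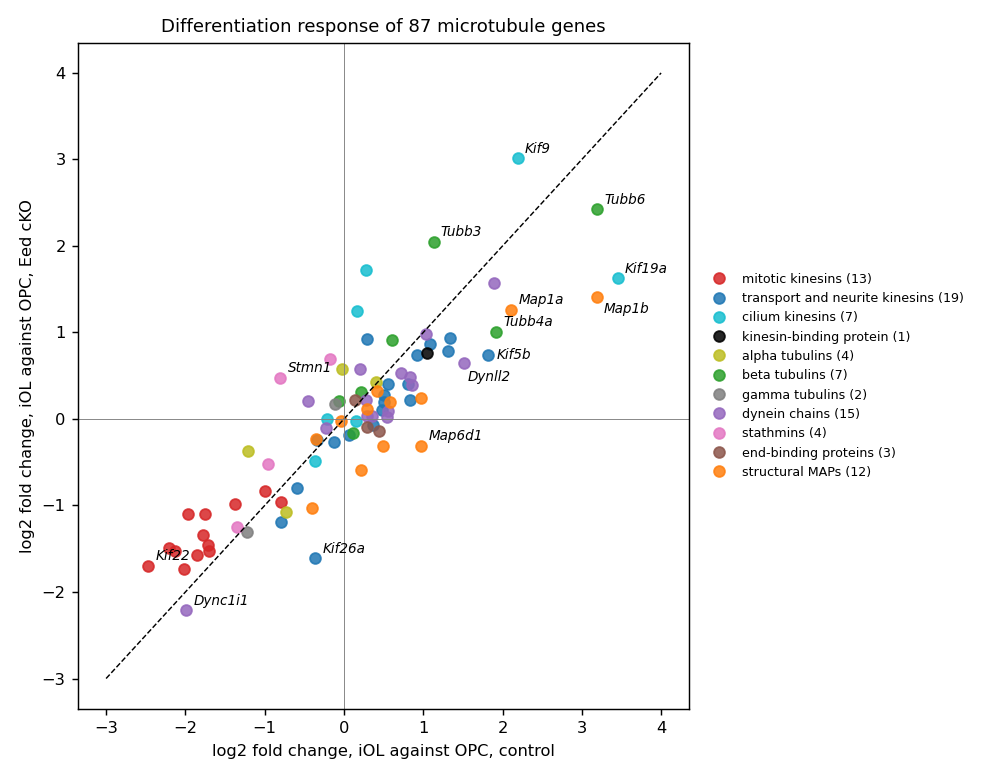
Log2 fold change of iOLs against OPCs in control cells (horizontal) and in Eed cKO cells (vertical) for the 87 genes, coloured by class, with the line of equal change dashed. The 13 mitotic kinesins lie together at the lower left and 12 of them lie above the dashed line, while Map1b, Kif19a, Tubb4a and Map6d1 lie below it on the right and Tubb3 and Kif9 above it.

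Loss of Eed in OPCs was associated with few changes in these genes. Of the 87 genes 1 was higher and none lower (edgeR adjusted p under 0.05), where 2.94% of all genes were higher and 0.303% lower. At an unadjusted p under 0.05 edgeR counted 12 higher and 11 lower, against 1784 and 1693 of all 13549 genes. DESeq2 called 8 higher and 1 lower, against 767 and 239 of all genes. Without the day 6 control library, which leaves 1 control OPC library, both edgeR counts rose, here and over all genes. Over all genes the calls also rose without the day 6 cKO library, from 399 higher and 41 lower to 1334 and 810. A fit with a term for postnatal day gave 8 and 3, against 848 and 534 of all genes. The gene called was Tubb6, at 4.51 and 5.74 CPM in controls and 9.11, 9.32 and 11.4 CPM in cKO cells (0.95 ± 0.17, edgeR adjusted p = 0.0195), with every cKO library above both controls. Its difference was 0.96 between the day 7 libraries and 0.93 between the day 6 libraries. The call was lost without the first control (adjusted p = 0.108), without either day 7 cKO library (0.0553 and 0.0591) and when only OPC libraries were fitted (0.137).

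No mitotic kinesin was called in OPCs by edgeR or DESeq2 and none had an unadjusted p under 0.05, and their median log2 fold change was 0.12. Kif11 differed by 0.18 ± 0.12 and Kif18b by -0.01 ± 0.12. The transport kinesins had positive values in 18 of 19 cases, against 6408 of all 13549 genes. Their median was 0.17, while the median over all genes was -0.02. None was called by edgeR, 5 had an unadjusted p under 0.05 upwards and DESeq2 called 4 higher. Between the day 7 libraries 18 of 19 were positive, with a median of 0.41, and between the day 6 libraries 9 of 19, with a median of -0.005. Each day has 1 control library, the day 7 control was below the day 6 control by a median of 0.246 over these kinesins, and the days were not tested against each other. Kif26a came nearest to a call, at 29.9 and 25.8 CPM in controls and 57.6, 67.4 and 39.5 CPM in cKO cells (0.98 ± 0.22, edgeR adjusted p = 0.0505). Map6d1 was at 29.9 and 28.3 CPM in controls and 18.2, 19.98 and 19.6 CPM in cKO cells (-0.60 ± 0.14, edgeR adjusted p = 0.0617). The 16 neuronal markers summed to 683 and 415 CPM in controls and 745, 722 and 492 CPM in cKO cells, higher at day 7 in both genotypes. Of these markers 15 had positive values and 3 were called higher, with a median of 0.56, and their part in the kinesin values was not tested. All 8 oligodendrocyte markers had negative values (median -1.10, 1 called lower), as had all 7 astrocyte markers (1 called lower). The astrocyte markers summed to 2978 (day 7) and 8805 CPM (day 6) in controls and to 2697, 2902 and 7009 CPM in cKO cells. The part of these 2 marker sets was not tested either.

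In iOLs the genes lower with loss of Eed were Tubb4a, 4 of 12 structural MAPs, 3 of 15 dynein chains, Mapre2 and Kif1bp, and the genes higher were Tubb3, Stmn1, Kif26b and 2 of 13 mitotic kinesins. Of the 87 genes 5 were higher (5.75%) and 10 lower (11.5%) by edgeR at an adjusted p under 0.05, against 7.08% and 3.51% of all genes. The share lower was above that of all genes and the share higher was below it. Leaving out any 1 iOL library, which leaves 1 in its group, lowered both counts, for these genes and over all genes.

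Map6d1 (chromosome 16, 20233309 to 20241358, GRCm38.p6) had the smallest p. It was at 57.9 and 56.6 CPM in control iOLs and at 13.2 and 17.9 CPM in cKO iOLs, 3.68-fold lower (-1.88 ± 0.16, edgeR adjusted p = 0.000529). It was the only one of the 15 called genes that stayed called under all 11 alternatives, with a highest adjusted p of 0.00987. Map1b (chromosome 13, 99421464 to 99516602) was at 1093 and 1031 CPM in controls and 372 and 488 CPM in cKO cells (-1.30 ± 0.36), with an edgeR adjusted p that rounds to 0.05 from below. That call was lost under 5 alternatives. Map1a was at 779 and 637 CPM against 332 and 416 CPM (-0.92 ± 0.17, edgeR adjusted p = 0.00879), and Map6 was lower by a log2 fold change of -0.56. The Map1a call was lost without the first library of either genotype (0.0897 and 0.0967), and that of Map6 without any 1 iOL library (0.0808 to 0.24). Map2 (-0.18), Map4 (0.07), Map7 (-0.04) and Mapt (0.11), the gene of tau, were not called, so 4 of the 12 structural MAPs were lower and none higher.

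Tubb4a (chromosome 17, 57080061 to 57087600) was at 1170 and 1100 CPM in control iOLs and at 333 and 466 CPM in cKO iOLs, 2.84-fold lower (-1.51 ± 0.25, edgeR adjusted p = 0.00593). The call was lost only without the first cKO library (-1.28, adjusted p = 0.0659). Tubb3 (chromosome 8, 123411553 to 123422015) moved the other way, from 113 and 115 CPM to 164 and 193 CPM (0.65 ± 0.17, edgeR adjusted p = 0.0442). Leaving out any of the 4 iOL libraries ended the Tubb3 call (0.111 to 0.265), and so did the replicate block (0.0542). Tubb6, the isotype called in OPCs, differed by 0.18 (edgeR adjusted p = 0.622). The remaining beta tubulins and the alpha tubulins were not called, Tuba1a among them (-0.53, edgeR adjusted p = 0.208).

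Since isotypes assemble into the same polymer, their reads were also taken as shares of all beta-tubulin reads. Tubb4a made up 10.5% and 8.71% of them in control OPCs, 6.19% to 8.62% in cKO OPCs, 27.3% and 26.4% in control iOLs and 10.99% and 13.8% in cKO iOLs. The share in cKO iOLs lay above every OPC library and well below the control iOLs. Tubb3 took 1.77% and 1.59% in control OPCs, 2.64% and 2.76% in control iOLs and 5.43% and 5.72% in cKO iOLs. Tubb5 took 24.2% of the reads in both control iOL libraries and 33.4% and 31.4% in cKO iOLs, although its CPM did not differ (1036 and 1011 against 1010 and 1062). These are shares of reads, not of transcripts, since lengths were not taken into account. Among the alpha tubulins, Tuba1a held 95.8% to 96.3% of reads in control iOLs, 93.3% to 93.5% in cKO iOLs and 88.8% to 90.7% in OPCs.

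**Figure D3:**
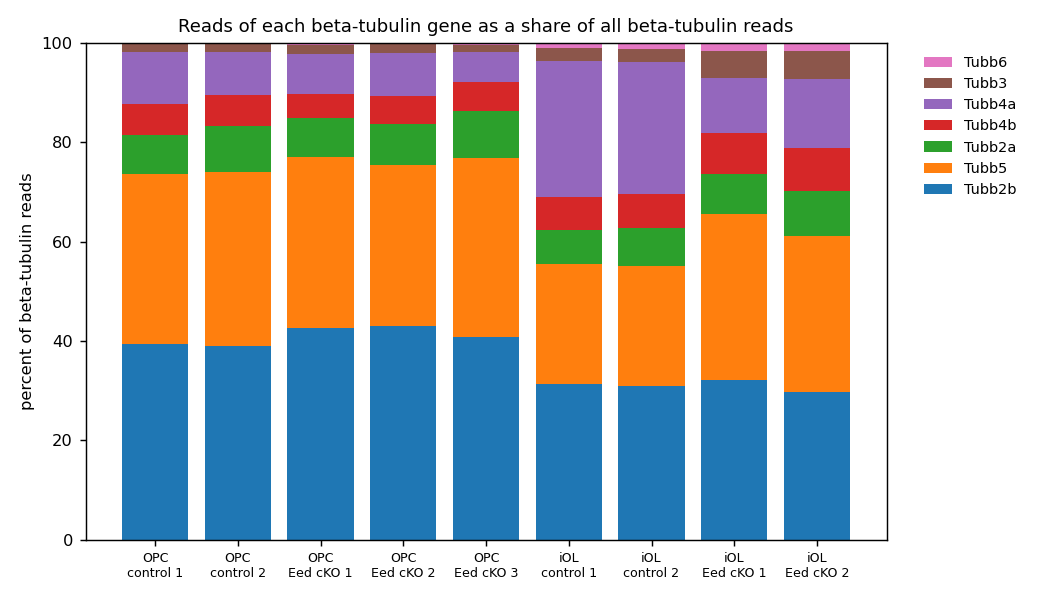
Reads of each of the 7 beta-tubulin genes as a percentage of all beta-tubulin reads, one bar per library. The Tubb4a segment is largest in the control iOL libraries (27.3% and 26.4%) and shorter in the cKO iOL libraries (10.99% and 13.8%), where the Tubb3 segment is largest.

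Of the dynein chains 3 light chains were called lower in cKO iOLs. Dynll2 was at 753 and 719 CPM in controls and 307 and 378 CPM in cKO cells (-1.10 ± 0.24, edgeR adjusted p = 0.0189), and Dynll1 at 362 and 363 CPM against 172 and 190 CPM (-1.0016 ± 0.19, edgeR adjusted p = 0.00995). Dynlt3 was lower as well (-0.71, edgeR adjusted p = 0.0323). The groups did not overlap for any of the 3. Dync1h1 (-0.24) and Dync1i1 (0.18) were not called, and no dynein chain was called higher. The calls of Dynll1, Dynll2 and Dynlt3 were each lost when any 1 of the iOL libraries was left out.

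The transport kinesins had only Kif26b called, at 68.2 and 53.6 CPM in controls and 110 and 100.2 CPM in cKO cells (0.78 ± 0.15, edgeR adjusted p = 0.0123). Negative values stood in 15 of 19, against 6842 of all 13549 genes. Their median over the 19 was -0.08, near that over all genes (-0.0036). Kif5b was at 406 and 425 CPM against 285 and 302 CPM (-0.50 ± 0.17, edgeR adjusted p = 0.0972) and Kif1a differed by -0.40, neither called. Kif1bp was lower, at 199 and 200.03 CPM against 114 and 140 CPM (-0.65 ± 0.13, edgeR adjusted p = 0.0136). Mapre2 was lower by a log2 fold change of -0.43 (edgeR adjusted p = 0.0305), while Mapre1 (-0.04) and Mapre3 (-0.08) were not called. The calls of Kif26b and Kif1bp were each lost when 1 library was left out, for 3 of the 4 iOL libraries (0.0552 to 0.11 and 0.0847 to 0.136), and that of Mapre2 without any 1 (0.139 to 0.222). No cilium kinesin was called by edgeR or DESeq2 (2 higher and 1 lower at an unadjusted p under 0.05).

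Stmn1, an antagonist of microtubule assembly that is abundant in dividing and immature cells, was at 65.6 and 56.2 CPM in control iOLs and at 140 and 117 CPM in cKO iOLs (1.08 ± 0.23, edgeR adjusted p = 0.0186). Both cKO libraries lay above both controls. Stmn2, a neuronal stathmin, was at 18.6 and 23.6 CPM against 47.5 and 55.9 CPM (1.29 ± 0.39, edgeR adjusted p = 0.0665) and was not called, nor were Stmn3 (-0.11) and Stmn4 (-0.23). The 16 neuronal markers summed to 528 and 522 CPM in control iOLs and 512 and 488 CPM in cKO iOLs. Gene by gene, 15 of the 16 had positive values with a median of 0.58, and 2 were called higher. Their part in the values of Tubb3, Stmn1 and Stmn2 was not tested. Leaving out any 1 iOL library ended the Stmn1 call (0.0582 to 0.136).

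All 13 mitotic kinesins had positive values in cKO iOLs, from 0.33 to 0.64 with a median of 0.50. Over all 13549 genes 6707 values were positive. The 13 were measured in the same iOL libraries, so their shared sign is not 13 separate observations. Of the 13 genes 2 passed the test. Kif18b was at 13.2 and 12.1 CPM in controls and 20.6 and 18.9 CPM in cKO cells (0.64 ± 0.13, edgeR adjusted p = 0.016), and Kif4, which binds chromosomes and the central spindle, at 12.3 and 12.4 CPM against 19.7 and 18.9 CPM (0.64 ± 0.15, edgeR adjusted p = 0.0234). Each of these calls was lost when any 1 of the iOL libraries was left out. The 13 values stayed positive under every alternative. A further 6 reached an unadjusted p under 0.05, while DESeq2 made 4 calls in the class. Over all genes 1975 were higher at that level by edgeR, and DESeq2 called 1202 higher. Kif11 (0.46 ± 0.14, edgeR adjusted p = 0.0717) and Kif23 (0.56 ± 0.16, edgeR adjusted p = 0.0543) were not called. The 16 spindle proteins likewise all had positive values, with a median of 0.37. By edgeR none was called and 6 had an unadjusted p under 0.05, and by DESeq2 the count was 1. Mki67 was at 114 and 99.6 CPM in controls and 176 and 146 CPM in cKO cells (0.60 ± 0.36, edgeR adjusted p = 0.392). In levels, the mitotic kinesins summed to 158 and 149 CPM in control iOLs, 226 and 206 CPM in cKO iOLs and 493 to 604 CPM in OPCs.

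**Figure D4:**
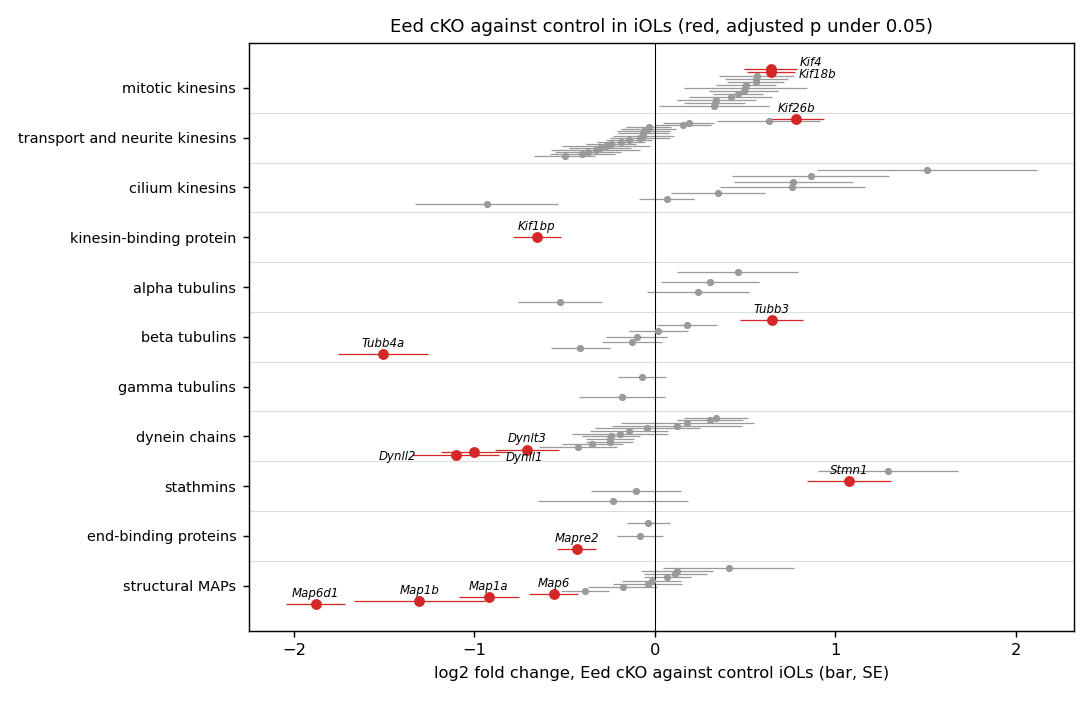
Log2 fold change of Eed cKO against control iOLs for each of the 87 genes, by class, with bars of 1 SE. Red points passed an adjusted p under 0.05. All 13 mitotic kinesins lie right of 0, between 0.33 and 0.64, and the called structural MAPs, Tubb4a and dynein light chains lie left of it.

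The oligodendrocyte markers moved with these results, from sums of 8378 and 8351 CPM in control iOLs to 1722 and 2442 in cKO iOLs. All 8 had negative values, with a median of -2.16. Of the 8, 5 were called lower (62.5%, against 3.51% of all genes), Myrf among them (-1.76 ± 0.30, edgeR adjusted p = 0.00664). The 7 astrocyte markers summed to 5990 and 6264 CPM in controls and 9005 and 10960 CPM in cKO iOLs, and none of them was called (none by DESeq2 or at an unadjusted p under 0.05 either). Of the 5 ependymal and multiciliated markers 3 were called higher, with sums of 36.4 and 50.1 CPM in controls and 70.8 and 72.3 CPM in cKO iOLs. Both endothelial markers in the table were called higher, with sums of 40.4 and 35.3 CPM against 87.5 and 103.5 CPM. Of 5 pericyte and fibroblast markers 1 was called higher, with sums of 24.5 and 79.6 CPM against 31.7 and 41.0 CPM. The part of a different mix of cells in the lower Tubb4a, MAP and dynein values was not tested.

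Whether the response to loss of Eed differed between the stages was tested as the difference of the differences, which equals the difference of the differentiation responses of cKO and control cells. Of the 87 genes none was higher and 1 lower by edgeR at an adjusted p under 0.05, where 0.945% and 0.886% of all genes passed. At an unadjusted p under 0.05 there were 10 higher and 17 lower, against 1230 and 1245 of all 13549 genes. DESeq2 called 3 and 9, against 364 and 459 of all genes. Without the day 6 control OPC library, which leaves 1 control OPC library, both edgeR counts rose, here and over all genes. The gene was Map6d1 (-1.28 ± 0.22, edgeR adjusted p = 0.0288), whose cKO difference was -0.60 in OPCs and -1.88 in iOLs. Its call held under 10 of 15 alternatives, and its adjusted p was 0.0844 to 0.135 without either day 7 cKO OPC library, either control iOL library or the first cKO iOL library. Kif5b (-1.07 ± 0.23, edgeR adjusted p = 0.0511), with cKO differences of 0.57 in OPCs and -0.50 in iOLs, and Stmn1 (1.28 ± 0.31, edgeR adjusted p = 0.0754) did not pass. Map1b had the value -1.78 with an SE of 0.49 (edgeR adjusted p = 0.103). Among the mitotic kinesins 12 of 13 values were positive, against 7592 of all 13549 genes. Their median was 0.39, against 0.07 over all genes. None was called by edgeR, 5 had an unadjusted p under 0.05 and DESeq2 called 1.

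Other microtubule genes, taken from lists that the name rule does not cover, were counted in the same fits. Of 19 further stabilisers, plus-end and severing proteins, 7 rose and 2 fell in control differentiation, and 1 was higher and 3 lower in cKO iOLs. Of all genes 21.0% rose and 25.3% fell in control differentiation, and 7.08% were higher and 3.51% lower in cKO iOLs. In cKO OPCs the shares of all genes were 2.94% higher and 0.303% lower. Katnal1, a relative of the severing protein katanin, rose from 32.6 and 48.5 CPM to 197 and 204 CPM in control differentiation (2.30 ± 0.19, edgeR adjusted p = 2.12e-05). In cKO iOLs it was at 82.5 and 97.9 CPM (-1.15 ± 0.18 against control, edgeR adjusted p = 0.00469), and its difference of differences was -1.51 ± 0.25 (edgeR adjusted p = 0.025). Camsap2, which caps minus ends, was lower in cKO iOLs by a log2 fold change of -0.83 and Tppp, a tubulin polymerisation factor of oligodendrocytes, by -0.98, whereas Dclk1 was higher by 1.18. Of 22 tubulin folding and modification genes only the tubulin deacetylase Sirt2 was called in cKO iOLs, at 1376 and 1258 CPM in controls and 421 and 528 CPM in cKO cells (-1.47 ± 0.21, edgeR adjusted p = 0.00276). Vash1, which removes the last tyrosine of alpha-tubulin, was called higher in cKO OPCs (0.70 ± 0.15, edgeR adjusted p = 0.04).

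The kinesin light chain Klc3 was the 1 of 5 cargo subunits called in either cKO comparison. It was at 2.23 and 1.74 CPM in control OPCs and 8.35, 7.54 and 5.47 CPM in cKO OPCs (1.84 ± 0.29, edgeR adjusted p = 0.0102), and at 0.625 and 0.999 CPM in control iOLs and 2.55 and 2.86 CPM in cKO iOLs (1.73 ± 0.35, edgeR adjusted p = 0.0144). Every cKO library lay above every control library of its stage. None of 17 dynactin and dynein regulators or 8 gamma-tubulin ring partners was called by edgeR in either cKO comparison. In iOLs the first list had 1 higher and 2 lower at an unadjusted p under 0.05, with the same numbers by DESeq2, and the second had none. In OPCs the first had 2 higher and 4 lower at that level and the second 1 and 1, and DESeq2 called 1 and 1 and none.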

How the data were processed

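RNA-seq libraries were compared over 9 samples in 4 groups. The authors deposited raw counts of reads for each gene. Per the submitters' processing notes, cutadapt 1.14, STAR 2.6.0, featureCounts, Subread 1.6.2 and mm10 were used. Per the labels, a stranded polyA kit served samples with over 100 ng of RNA and a SMARTer kit those with less, without saying which was which. A repeated header line was left out, leaving 13549 genes.

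Counts were tested in R 4.3.3 with edgeR 4.0.16 (quasi-likelihood, TMM, a filter at a minimum count of 10 that removed no gene, 4 group means over 9 libraries, 5 residual degrees of freedom), adjusted by Benjamini-Hochberg over all genes and called under 0.05. An SE is the size of the log2 change divided by the root of F. CPM values are TMM-scaled and not per length, so they compare a gene between libraries and not genes with each other. Within-day differences used log2 of CPM plus 0.5. The biological coefficient of variation was 16.3%.

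Members, lists and classes were chosen with earlier results of these data known, and Kif1bp was set apart after its name had matched. Named are genes called in a cKO comparison, up to 2 called genes per class and direction of differentiation with 5 CPM or more and no overlap, and a list of major family members. Kif18a, Kif2c, Kif20b and Kifc5b were named in addition, after their values were seen, as were Tuba1c, Map7d1, Map7d2 and Dynlt1c.

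Alternatives were DESeq2 1.42.0, RLE size factors, no filter, a filter at 1 CPM in 4 libraries, a fit of only the groups compared, a replicate block, a term for postnatal day, and leaving out each library. Chromatin immunoprecipitation samples were not analysed here.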

Additional observations from a re-analysis of the deposited data

Results flagged for a closer look

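In the main edgeR fit Map6d1 was the 1 gene of the 87 called in the difference of differences between OPCs and iOLs. Its value was -1.28 on the log2 scale (edgeR adjusted p = 0.0288). Its cKO libraries were below their controls at both stages, and it rose in control but was not called in cKO differentiation. The Map6d1 call held under 10 of 15 alternatives. DESeq2 called 3 of the 87 genes higher and 9 lower in that test.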

How the results depend on the processing

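No called result of a named gene changed sign under any alternative, and 50 of 83 stayed called under every alternative that gave a test. RLE size factors moved the median of all genes by at most 0.0244. Over all genes the OPC counts (399 higher, 41 lower) became 848 and 534 with postnatal day as a term and 767 and 239 with DESeq2. In the difference of differences the counts over all genes (128 higher, 120 lower) became 676 and 526 with postnatal day and 364 and 459 with DESeq2. In OPCs the count higher (1) became 2 with RLE size factors, 0 with only the groups compared, 8 with postnatal day as a term and 8 with DESeq2, and the count lower (0) became 3 with postnatal day and 1 with DESeq2. In iOLs the count higher (5) became 12 with only the groups compared, 10 with postnatal day and 8 with DESeq2, and the count lower (10) became 24 with only the groups compared, a setting that left 21 of 33 genes higher in control differentiation. In the difference of differences the counts (0 higher, 1 lower) became 4 and 10 with postnatal day and 3 and 9 with DESeq2, and it was not run with only the groups compared. With the replicate number as a block the OPC counts were 7 and 2, the iOL counts 5 and 10 and the difference of differences 3 and 7. Same-numbered libraries correlated in their deviations by 0.313 and -0.352 in OPCs and 0.239 in iOLs. In a group of 2 the deviations mirror each other, so these values cannot show whether same-numbered libraries are paired. In OPCs control and cKO libraries of the same postnatal day correlated by 0.313 and 0.352 (day 7) and 0.43 (day 6). The cause of the moves in the counts was not tested.

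Leaving out 1 library at a time gave 0 to 12 higher and 0 to 17 lower in OPCs, both highest without the day 6 control. It gave 0 to 1 higher and 1 to 4 lower in iOLs, 21 to 35 higher in control differentiation, 12 to 20 higher in cKO differentiation, and 0 to 10 each way in the difference of differences. In groups of 2 the lone library left is assumed to vary like the others. The counts over all genes likewise rose in OPCs without the day 6 control and fell in iOLs without any 1 iOL library. Of the 87 genes 4 were under 5 CPM in every group.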
